A study of Mus musculus with 2 samples.

Results

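The genes described here are 9 genes of mural cells, the cells that lie on the outside of blood vessels: *Pdgfrb*, *Rgs5*, *Abcc9* and *Anpep* for pericytes, *Acta2*, *Myh11*, *Tagln* and *Cnn1* for vascular smooth muscle, and *Des* for both. They were taken by symbol from the gene tables of the series, and all 9 were found among 23951 symbols listed in both tables. RNA-seq was performed on optic nerves at P12 from control mice (Tcf7l2 c/+; OLig1-cre, 1 library) and from *Tcf7l2*ΔHMG mutants (Tcf7l2 c/c; OLig1-cre, 1 library). Both genotypes carry Olig1-Cre, and the controls carry 1 floxed *Tcf7l2* allele, so they are heterozygous in Cre-expressing cells and not wild type. Cre is expressed in the oligodendrocyte (OL) lineage and removes the exon that encodes the DNA-binding HMG box. The number of nerves or animals in each library is not given in the sources used here.

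Pericytes lie along capillaries within the vascular basement membrane, and smooth muscle cells wrap arteries and arterioles. Endothelial cells release platelet-derived growth factor B (PDGF-B), which binds the receptor PDGFRβ on pericytes and draws them to the vessel wall. In the central nervous system, pericytes are needed to form the blood-brain barrier, and smooth muscle cells set vessel calibre with a contractile apparatus of actin, myosin and calponin. Several of these genes are also expressed outside mural cells. Aminopeptidase N is found on fibroblasts and myeloid cells, PDGFRβ on fibroblasts, and desmin in skeletal muscle.

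The values are FPKM, that is fragment numbers normalised to transcript length and to the depth of the library, each with the interval that Cufflinks gave it. Depth, as inferred from those intervals, was 27624000 fragments for control and 39938000 for mutant, so 3 fragments on 1 kb equal 0.109 and 0.0751 FPKM. A log2 ratio is that of mutant over control after 0.1 FPKM was added to each, which understates the difference in low genes. Genes with at least 1 FPKM in 1 or both libraries were compared (14199), and a fold change above 1.5 was used to call a gene. With 1 library per genotype there is no replicate check and no test of any difference, and the intervals cover sampling within a library, not variation between animals. Among the compared genes, 9.13% of control values and 11.5% of mutant values lay outside their own interval, but none of the values of the 9 genes did. In whole tissue, fewer cells of a type and less RNA per cell cannot be told apart. *Tcf7l2* itself was at 17.8 FPKM in the control library and 14.6 FPKM in the mutant library, which does not check the genotype, because a transcript without the deleted exon can still be made and counted.

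Of the 9 genes, 8 passed the filter on low values, and *Cnn1* did not. A fold change of 1.5 was passed by *Anpep* and *Tagln*, both higher in the mutant, and by *Rgs5*, which was lower. Of all compared genes, 15.4% were higher and 8.52% lower by that much. *Tagln* was called because its control value is listed at 0, which is dealt with below. Of the 13898 compared genes that were above 0 in both libraries, 14.6% were higher and 7.7% lower, and the 7 mural genes among them held 1 of each. Shares this near the background are not a result about the mural genes as a set. The median log2 ratio was 0.16 over these 7 genes and 0.046 over all genes above 0 in both libraries. The control and mutant intervals were apart in 6 of the 8 genes, beside 52.4% of all compared genes. Of all called genes, 64.4% were higher in the mutant (2185 higher, 1210 lower). This share was 6.98% when the mutant library was rescaled so that all rows, named or not, had the control's sum, which moved the median of all compared genes to -0.62. Under it, 56 of the 82 genes that were higher in the mutant, among 129 listed genes of all cell types compared and above 0 in both libraries, turned sign. These include *Pdgfrb*, *Des*, *Acta2*, *Kcnj8*, *Mkl1*, *Fhl2*, *Myl9*, *Mylk*, *Zic1*, *Cdh5*, *Lyve1* and *Tnnt3*. All directions below are at the deposited scaling unless another is named.

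**Figure D1:**
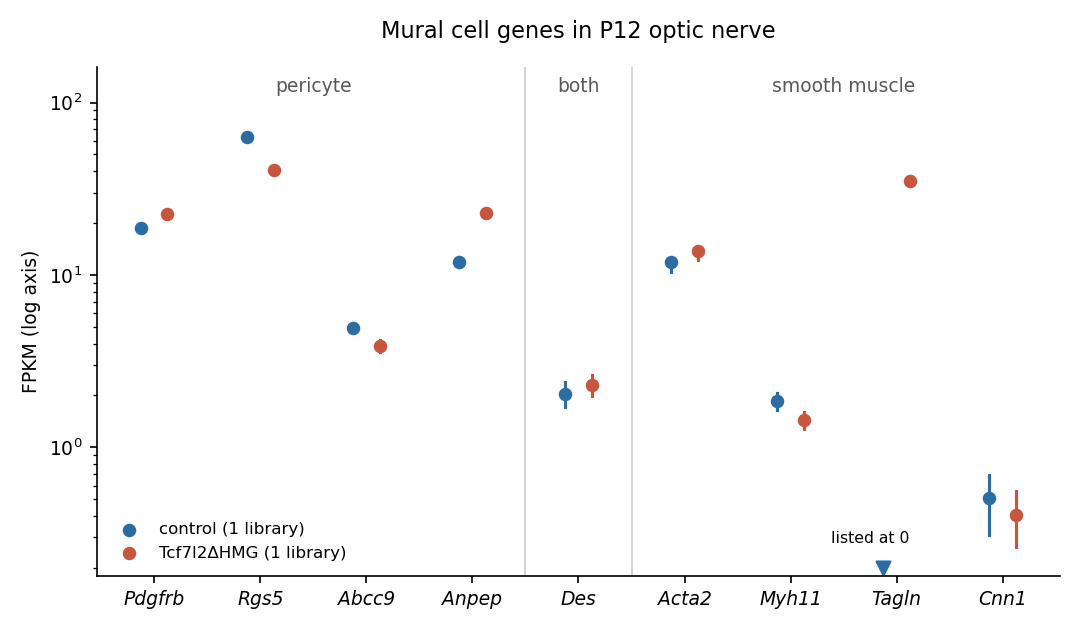
FPKM of each mural cell gene (log axis) in the control library and the *Tcf7l2*ΔHMG library, 1 library each. Points are FPKM, vertical bars are Cufflinks intervals (shorter than the point where none is seen), and the triangle marks *Tagln*, listed at 0 in the control. *Rgs5* was the highest gene in both libraries, and *Cnn1* was the lowest of those above 0.

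*Pdgfrb*, which encodes the receptor for PDGF-B, lies on chromosome 18 from 61204791 to 61244721 (build mm9, the build named in the submitters' processing notes). It was at 18.6 FPKM in the control (interval 17.9 to 19.6) and at 22.5 FPKM in the mutant (interval 21.9 to 23.5). The mutant value was 1.21 times the control value, a log2 ratio of 0.27, below the fold change used here, and the sign turned (log2 ratio -0.40) when all rows were rescaled. Among all compared genes, 69.0% had a lower log2 ratio. *Pdgfb*, the gene of its ligand, was at 5.14 FPKM in the control library and 4.75 FPKM in the mutant library, with overlapping intervals.

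*Rgs5*, which encodes a regulator of G protein signalling that is abundant in pericytes, lies on chromosome 1 from 171585581 to 171625922. It was at 63.0 FPKM in the control (interval 61.1 to 65.6) and at 40.5 FPKM in the mutant (interval 39.5 to 42.2). The control value was 1.56 times the mutant value, a log2 ratio of -0.64, and 7.49% of compared genes had a lower one. This is just past the fold change used, and the Cufflinks bounds allow a log2 ratio between -0.73 and -0.53. Its neighbour and relative *Rgs4*, which is also found in pericytes, was at 11.6 and 10.3 FPKM with overlapping intervals. The level of *Rgs5* was thus 5.45 times that of *Rgs4* in the control library and 3.94 times in the mutant library.

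*Abcc9* encodes SUR2, the regulatory subunit of an ATP-sensitive potassium channel whose pore, Kir6.1, is encoded by the next gene, *Kcnj8*. It lies on chromosome 6 from 142536382 to 142650818 and was at 4.95 FPKM in the control (interval 4.64 to 5.27) and 3.88 FPKM in the mutant (interval 3.59 to 4.17), a log2 ratio of -0.34 that passed the fold change, at -1.00, when all rows were rescaled. *Kcnj8* was at 7.35 FPKM in the control library and 9.39 FPKM in the mutant library (log2 ratio 0.35). The intervals were apart for both subunits, and neither passed a fold change of 1.5. Per unit of *Kcnj8*, there was 0.674 of *Abcc9* in the control library and 0.413 in the mutant library. The paralogs *Abcc8* and *Kcnj11*, which form the channel of neurons and endocrine cells, were at 0.183 and 0.235 FPKM in the control, and at 0.142 and 0.396 FPKM in the mutant.

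*Anpep* encodes aminopeptidase N (CD13), a cell surface peptidase, and lies on chromosome 7 from 86966689 to 86993077. It was at 11.9 FPKM in the control (interval 11.1 to 12.7) and at 22.9 FPKM in the mutant (interval 21.9 to 24.0), a fold change of 1.93 and a log2 ratio of 0.94. Of compared genes, 7.56% had a higher log2 ratio. *Anpep* was no longer called, at a log2 ratio of 0.27, when all rows were rescaled. The genes used as pericyte markers therefore differed in direction. *Anpep* was higher in the mutant library under every scaling tried, *Pdgfrb* under all but the rescaling of all rows, and *Rgs5* and *Abcc9* were lower under every scaling tried.

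Ratios between genes of the same library do not depend on how the libraries are scaled. *Rgs5* was at 3.38 times the level of *Pdgfrb* in the control library and 1.80 times in the mutant library. *Abcc9* was at 0.266 times the level of *Pdgfrb* in the control library and 0.172 times in the mutant library. *Anpep* went the other way, from 0.638 times to 1.02 times. The ratio of *Rgs5* to *Anpep* was 5.30 in the control library and 1.77 in the mutant library, 3.0 times lower. Of the other genes, *Acta2* was at 0.640 and 0.613 times the level of *Pdgfrb*, *Des* at 0.110 and 0.102 times, *Myh11* at 0.0993 and 0.0641 times and *Cnn1* at 0.0272 and 0.0181 times. The ratios of *Myh11* and *Cnn1* were thus 0.646 and 0.664 times those of the control, beside 0.648 times for *Abcc9*. *Cnn1* did not pass the filter on low values and its control and mutant intervals overlapped, so its ratio is uncertain.

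**Figure D2:**
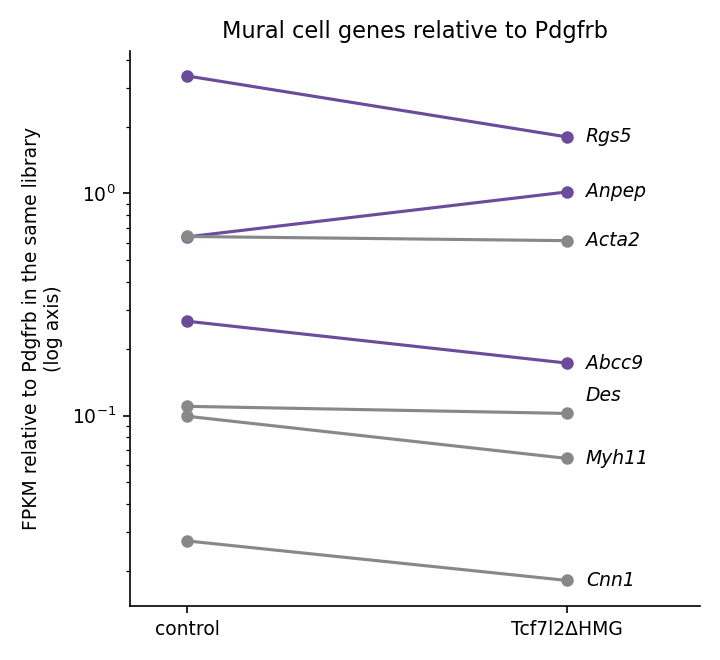
FPKM of 7 mural cell genes divided by the FPKM of *Pdgfrb* in the same library (log axis), for the control and the *Tcf7l2*ΔHMG library, 1 library each. Purple lines are pericyte genes and grey lines *Des* and smooth muscle genes. The line of *Anpep* goes up, those of *Rgs5*, *Abcc9*, *Myh11* and *Cnn1* go down, and those of *Acta2* and *Des* are nearly flat. *Cnn1* did not pass the filter on low values, and its intervals overlapped.

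Summed FPKM of the 4 pericyte genes was 98.5 in the control library and 89.8 in the mutant library, a sum led by *Rgs5*. Without *Rgs5* it was 35.5 in the control library and 49.3 in the mutant library. The sum of 16 endothelial genes, which mark the cells that mural cells cover, was 300.4 FPKM in the control library and 232.6 FPKM in the mutant library. Relative to the endothelial sum, the pericyte sum was 0.328 in the control library and 0.386 in the mutant library, and without *Rgs5* it was 0.118 and 0.212.

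*Des* encodes desmin, an intermediate filament protein of muscle and pericytes, and lies on chromosome 1 from 75356867 to 75365154. It was at 2.05 FPKM in the control (interval 1.72 to 2.39) and 2.30 FPKM in the mutant (interval 1.98 to 2.61). These intervals overlap, so they do not set the libraries apart. The sign of the log2 ratio (0.16) turned to -0.48 when all rows were rescaled. Desmin is also a skeletal muscle protein, and extraocular muscles lie beside the optic nerve. Of 15 skeletal muscle genes, *Mb* was listed at 0 in the control (upper bound 0.142 FPKM) and at 0.967 FPKM in the mutant (interval 0.593 to 1.29), and the 5 skeletal myosin heavy chains on the list reached at most 0.114 FPKM in the control library and 0.106 FPKM in the mutant library. *Ckm*, the muscle creatine kinase, was at 0.458 and 0.331 FPKM. *Mylpf* was at 2.17 and 2.18 FPKM and *Tnni2* at 1.64 and 1.98 FPKM, near the level of *Des*. *Acta1* was at 10.5 and 12.4 FPKM, and the other 14 genes summed to 8.88 FPKM in the control library and 11.5 FPKM in the mutant library. Of the 4 that passed the filter, 1 was called, *Tnnt3* (2.76 and 4.28 FPKM), with overlapping intervals, beside 15.4% called higher over all compared genes. The part of skeletal muscle in the *Des* values was not tested.

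The smooth muscle genes were measured at lower levels than the pericyte genes, apart from *Acta2* and the mutant value of *Tagln*. *Acta2* encodes smooth muscle alpha-actin and lies on chromosome 19 from 34314826 to 34329863. It was at 11.9 FPKM in the control (interval 10.4 to 12.6) and at 13.8 FPKM in the mutant (interval 12.1 to 14.1), a log2 ratio of 0.21. The intervals overlap, and the sign turned (log2 ratio -0.46) when all rows were rescaled. *Myh11*, which encodes the smooth muscle myosin heavy chain, lies on chromosome 16 from 14194620 to 14291501. It was at 1.85 FPKM in the control (interval 1.64 to 2.07) and 1.44 FPKM in the mutant (interval 1.28 to 1.60). Its intervals were narrowly apart, and its log2 ratio of -0.34 did not pass the fold change, although it did, at -0.95, when all rows were rescaled. *Cnn1*, which encodes the actin-binding protein calponin 1, lies on chromosome 9 from 21903697 to 21913665 and was at 0.508 FPKM (interval 0.310 to 0.692) and 0.407 FPKM (interval 0.265 to 0.554). The intervals of *Cnn1* overlap, so they do not set the libraries apart. *Acta2* was at 6.45 times the level of *Myh11* in the control library and 9.56 times in the mutant library.

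*Tagln* encodes transgelin (SM22), an actin-binding protein of smooth muscle, and lies on chromosome 9 from 45737711 to 45744141. It is listed at 0 in the control, with an upper bound of 0.0524 FPKM, and at 35.3 FPKM in the mutant (interval 33.3 to 37.3). In the mutant it was the second gene of the 9, between *Rgs5* and *Anpep*. Its row carries an assembly identifier in the mutant and the plain gene symbol in the control. This does not set *Tagln* apart, because the row of *Pdgfrb* also carries such an identifier in 1 library only, the control. The last 95 bases of *Pcsk7*, a widely expressed protease gene on the opposite strand, overlap its row, and *Pcsk7* is listed at 0 in both libraries. Of 12772 protein-coding genes compared, 30 were listed at 0 in the control with at least 5 FPKM in the mutant, and 24 were at 0 in the mutant with at least 5 FPKM in the control. These include widely expressed genes, such as *Morf4l2* at 0 and 148.2 FPKM. No fold change is therefore given for *Tagln*, and its values say only that it was listed at 0 in the control. The summed FPKM of the 4 smooth muscle genes was 14.3 in the control library and 50.9 in the mutant library, and without *Tagln* the mutant sum was 15.7.

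By level, the order in the control was *Rgs5*, *Pdgfrb*, *Acta2*, *Anpep*, *Abcc9*, *Des*, *Myh11*, *Cnn1* and *Tagln*. The intervals of *Acta2* and *Anpep* overlapped, as did those of *Des* and *Myh11*, so these neighbours cannot be ranked. In the mutant the order was *Rgs5*, *Tagln*, *Anpep*, *Pdgfrb*, *Acta2*, *Abcc9*, *Des*, *Myh11* and *Cnn1*, and only *Anpep* and *Pdgfrb* had overlapping intervals. Leaving out *Tagln*, the change of order was that *Anpep* moved from level with *Acta2* to level with *Pdgfrb*.

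Smooth muscle actin, myosin, calponin and transgelin have relatives in other cells. *Actb* and *Actg1*, the cytoplasmic actins of all cells, were at 879.9 and 723.6 FPKM in the control library and 666.6 and 673.1 FPKM in the mutant. Each of these values lay outside its own interval. The *Actg1* intervals were 639.9 to 659.3 in the control and 673.9 to 692.2 in the mutant. They order the libraries the opposite way to its FPKM, so the direction of *Actg1* is uncertain. *Myh9*, a non-muscle myosin, was at 35.9 and 41.9 FPKM, *Myh10* was at 21.8 and 23.7 FPKM, and *Myh14* was at 6.69 and 6.78 FPKM. *Myh9* was at 19.4 times the level of *Myh11* in the control library and 29.1 times in the mutant library. *Cnn3*, the calponin of non-muscle cells, was at 289.8 and 238.1 FPKM, which was 571 and 585 times the level of *Cnn1*. *Cnn2* was at 32.6 and 40.3 FPKM. *Tagln2* was at 77.3 and 79.0 FPKM, and *Tagln3*, the neuronal form, was at 31.4 and 51.8 FPKM. The mutant value of *Tagln2* lay above its interval (65.6 to 71.4), which was below the control interval (73.7 to 81.4). The direction of *Tagln2* is therefore uncertain too. *Tagln3* was the only one of the 15 paralogs compared that passed a fold change of 1.5. That fold change was passed by 15.4% (higher) and 8.52% (lower) of all compared genes. *Vim*, an intermediate filament gene of glia and fibroblasts, was at 1762 and 1533 FPKM. *Pdgfra*, the sister receptor gene of *Pdgfrb* that marks OL precursors and fibroblasts, was at 35.9 and 33.6 FPKM. The values of *Cnn2* and *Vim* in both libraries, and of *Cnn3* in the mutant library, also lay outside their intervals. The upper bounds of *Myh14* in the control (172.4 FPKM) and *Pdgfra* in the mutant (161.1 FPKM) were far above their values. Among muscle actins, *Acta1* was at 10.5 and 12.4 FPKM, *Actg2* at 1.40 and 1.28 FPKM and *Actc1* at 0.122 and 0.232 FPKM. The muscle actins are nearly identical in coding sequence, so the split of fragments between *Acta2* and *Acta1* is uncertain.

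**Figure D3:**
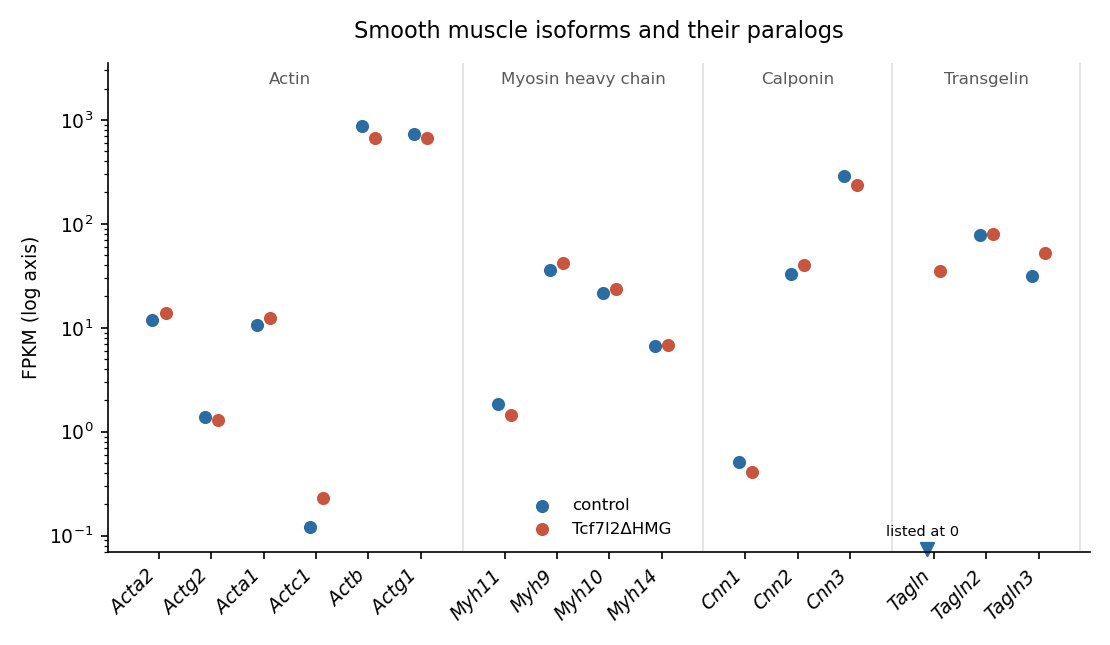
FPKM (log axis) of smooth muscle isoforms and their paralogs in the control library and the *Tcf7l2*ΔHMG library, 1 library each. The triangle marks *Tagln*, listed at 0 in the control. *Acta2*, *Myh11* and *Cnn1* sit below the non-muscle members of their families in both libraries.

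Smooth muscle genes are switched on by serum response factor, which binds a DNA element called the CArG box, together with myocardin or its relatives. *Myocd*, the gene of myocardin, was near the limit of detection at 0.0810 and 0.0499 FPKM. *Srf* was at 7.73 and 8.45 FPKM, and the myocardin relatives *Mkl1* and *Mkl2* were at 4.74 and 6.29 FPKM in the control library and at 6.55 and 6.26 FPKM in the mutant. The intervals were apart for *Mkl1* (log2 ratio 0.46), which did not pass the fold change, and for the cofactor *Fhl2* (15.5 and 20.5 FPKM). *Klf4*, which opposes the contractile program in smooth muscle and is expressed in other cells too, was at 9.02 and 16.3 FPKM, a fold change of 1.81. It was the only one called of the 5 of these 6 regulators that passed the filter. The share called higher was 15.4% over all compared genes.

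Promoters were read from RefSeq for build GRCm38.p6, which is not the build of the expression tables. They were found for 6 of the 9 genes (*Rgs5*, *Abcc9*, *Anpep*, *Des*, *Acta2* and *Cnn1*), and the 250 bases before each start were searched. A CArG box with at most 1 of its 6 central bases other than A or T was present in *Acta2* alone, which held 2, beside 8.59% of all 32851 promoters. The element reads the same on both strands. The core of the motif of TCF factors such as Tcf7l2, TCAAAG or CTTTGA on the other strand, was present in *Rgs5* alone, beside 13.8% of all promoters. The 120 bases before the start are shown for *Acta2*, with both CArG boxes in capitals, for *Rgs5*, with the TCF core in capitals, and for *Anpep*, which held neither. *Rgs5* and *Anpep* are shown because they were the genes past the fold change in opposite directions. The windows are chr19:34255374-34255493 on the minus strand, chr1:169655381-169655500 on the plus strand and chr7:79848211-79848330 on the minus strand.
Acta2: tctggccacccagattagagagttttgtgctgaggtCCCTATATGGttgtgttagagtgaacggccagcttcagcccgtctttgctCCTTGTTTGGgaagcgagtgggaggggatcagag
Rgs5: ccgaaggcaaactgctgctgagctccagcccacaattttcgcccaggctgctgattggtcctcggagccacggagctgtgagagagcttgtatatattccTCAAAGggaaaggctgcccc
Anpep: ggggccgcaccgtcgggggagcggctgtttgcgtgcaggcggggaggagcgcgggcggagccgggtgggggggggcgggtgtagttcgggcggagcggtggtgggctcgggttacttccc
A match of letters is not evidence of binding, and its part in these values was not tested.

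A further 19 pericyte genes were listed, of which 18 passed the filter. Of these, 5 were higher and 2 lower by a fold change of 1.5, beside 15.4% and 8.52% of all compared genes, and the median log2 ratio was 0.27, beside 0.047 for all compared genes. The largest difference was in *Mcam* (CD146), an adhesion molecule also present on endothelial cells, at 117.7 FPKM in the control library and 29.4 FPKM in the mutant library, 4.0 times lower. *Higd1b*, a gene largely restricted to pericytes in brain, was at 8.51 FPKM (interval 6.63 to 10.4) and 3.83 FPKM (interval 2.94 to 4.73), 2.22 times lower. *Cox4i2*, an isoform of a respiratory chain subunit found in pericytes, was at 5.40 and 4.17 FPKM with overlapping intervals. *Notch3*, the Notch receptor of mural cells, was at 4.76 and 3.90 FPKM, also with overlapping intervals. *Cspg4* (NG2), which is shared with OL precursors, was at 9.93 and 8.06 FPKM and did not pass the fold change.

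On the higher side, *Ifitm1*, an interferon-induced membrane protein gene, was at 49.0 FPKM in the control library and 125.2 FPKM in the mutant library, a fold change of 2.56. *Foxf2*, a transcription factor of brain pericytes and of fibroblasts, was at 6.53 and 14.5 FPKM, a fold change of 2.22. *Atp13a5*, a transport ATPase found in brain pericytes, was at 9.53 and 16.3 FPKM, a fold change of 1.71. The other called genes were *Vtn*, which encodes vitronectin (159.9 and 256.4 FPKM), and the transcription factor gene *Zic1* (31.1 and 48.3 FPKM).

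A further 19 smooth muscle genes were listed, of which 16 passed the filter. Of these, 4 were higher and 0 lower, beside 15.4% and 8.52% of all compared genes. Their median log2 ratio was 0.15, beside 0.047 for all compared genes. One of the 4, *Lmod1*, which encodes an actin-filament nucleator of smooth muscle, is listed at 0 in the control library and at 3.30 FPKM in the mutant library, like *Tagln*. Without *Lmod1*, 3 of 15 were higher, and the median log2 ratio was 0.12. These 3 were *Mustn1* (3.16 and 7.01 FPKM), *Aoc3*, an amine oxidase of smooth muscle and fat (1.96 and 3.38 FPKM), and *Synpo2*, an actin-bundling protein gene (8.44 and 13.6 FPKM). The largest differences to the lower side were in *Pdlim3* (1.71 and 1.18 FPKM, overlapping intervals), *Csrp1* (312.4 and 232.1 FPKM) and *Ppp1r12b* (10.3 and 7.75 FPKM), and none of these passed the fold change. The myosin light chain gene *Myl9* was at 46.8 and 57.5 FPKM and the kinase gene *Mylk* at 14.1 and 20.4 FPKM, both below the fold change.

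Of 20 genes for signals that recruit and hold mural cells, 19 passed the filter, with 3 higher and 1 lower, near the 15.4% and 8.52% of all compared genes, and a median log2 ratio of 0.025 that turned to -0.022 when centred on the median of all compared genes. *Sphk1*, the kinase that makes sphingosine-1-phosphate, was at 10.8 and 24.7 FPKM, a fold change of 2.28. *Tgfb1*, a ligand that drives mural cell differentiation, was at 6.07 and 11.3 FPKM, and *Pdgfd*, another ligand of PDGFRβ, was at 9.22 and 15.9 FPKM. *Edn1*, the gene of the vasoconstrictor endothelin 1, was at 1.23 and 0.644 FPKM, 1.92 times lower in the mutant, and it was no longer called with a pseudocount of 1 FPKM. *Tek*, the angiopoietin receptor of endothelial cells, and *Cdh2*, which joins pericytes to endothelial cells, had log2 ratios of -0.32 and -0.28.

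**Figure D4:**
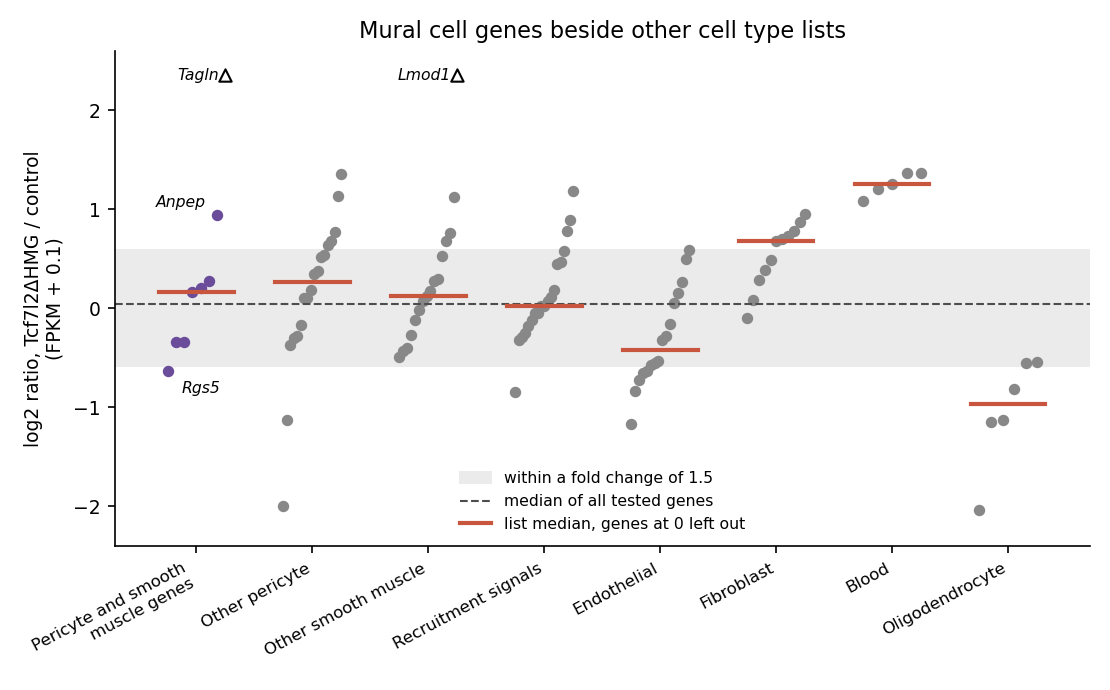
Log2 ratio of mutant over control (FPKM + 0.1) for the mural cell genes (purple) and the genes of 7 other lists (grey) that passed the filter, 1 library per genotype. Red bars are list medians without genes at 0, the dashed line is the median of all compared genes, the grey band is a fold change within 1.5, and triangles are genes listed at 0 in the control, drawn at the top edge and not to scale. Of the mural cell genes drawn as points, only *Anpep* lies above the band and only *Rgs5*, narrowly, below it. The fibroblast and blood lists lie mostly above the dashed line, and the endothelial and OL lists mostly below it.

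Genes of other cell types in the nerve were also compared between the libraries. The counts below stand beside 15.4% higher and 8.52% lower of all compared genes, and the medians beside 0.047. Counts near these shares, as in the astrocyte list, are not a result about the list. Of 16 endothelial genes, 1 was higher and 5 were lower, with a median log2 ratio of -0.42, and 0 were higher and 7 lower when centred on the median of all compared genes. The lowest ratios were those of the barrier transporter genes *Mfsd2a* (40.3 and 17.9 FPKM) and *Slco1c1* (14.8 and 8.27 FPKM) and of *Ly6c1* (35.7 and 21.6 FPKM). The *Ly6c1* values are not from like rows. Its control row was merged with another name and began at 74825307, and its mutant row was not merged and began at 74874448. *Cdh5*, the cadherin of endothelial junctions, was higher (20.9 and 31.6 FPKM, a fold change of 1.51). It was not called after that centring or with a pseudocount of 1 FPKM. Of 11 fibroblast genes, 6 were higher and 0 lower, with a median log2 ratio of 0.68, a range of levels from 20.1 to 685.6 FPKM in the control library and from 33.4 to 1258 FPKM in the mutant, and a sum of 1959 FPKM in the control library and 2991 FPKM in the mutant library. Their highest ratios were in *Fbln1*, *Igf2* and *Dcn*, with log2 ratios of 0.95, 0.88 and 0.78, beside 0.94 for *Anpep* and 0.27 for *Pdgfrb*. When all rows were rescaled, *Fbln1*, *Igf2* and *Dcn* were at 0.28, 0.20 and 0.10, and no fibroblast gene was called higher. The part of fibroblasts in the values of *Anpep*, *Pdgfrb* and *Foxf2* was not tested. All 5 blood genes were higher, with a median log2 ratio of 1.25 and a sum of 251.6 and 630.5 FPKM. *Hba-a1* and *Hba-a2* share the same rows, so they are not separate measurements. Their shared value (88.7 and 227.9 FPKM) enters the sum under each name, which inflates it. That value sums 2 rows in the control and is 1 row in the mutant, where it lay above its interval (182.7 to 200.3 FPKM). *Hbb-b2* (29.9 and 69.0 FPKM) lay above its interval in both libraries. Of 8 microglia and macrophage genes, 2 were higher, *Mrc1* and *Lyve1*, and 0 lower, with a median log2 ratio of 0.39 and a sum of 180.9 and 233.1 FPKM. Their part in *Anpep*, which is also a myeloid gene, was not tested. Of 6 astrocyte genes, 1 was higher and 0 lower (median log2 ratio 0.16), and of 6 OL genes, 0 were higher and 4 lower (median log2 ratio -0.97).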

How the data were processed

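RNA from optic nerves at P12 was sequenced for 1 control and 1 *Tcf7l2*ΔHMG library. The authors used TopHat with its defaults for mapping, and Cufflinks for the deposited FPKM values and their intervals. The submitters' processing notes name build mm9, and versions are not given in the sources used here. Locus starts were counted from 1 after 1 was added, since spans as written equalled RefSeq gene lengths for 9414 of 21468 symbols and spans plus 1 for 555. Comma-merged names were split, with the value of the row given to each symbol, and rows of a symbol were summed. Genes with status OK in both libraries and at least 1 FPKM in 1 of them were compared on log2(FPKM + 0.1), with a fold change of 1.5. No statistical test of a difference was made, and no genes of like pattern were sought, because over 2 libraries a pattern is 1 ratio. The calling script was tested on simulated data with known fold changes well past 1.5. That simulation did not check calls near 1.5, genes listed at 0, merged rows or the scaling of the libraries. Depth was the smallest number of fragments at which the interval bounds of unnamed rows under 100 bases (194 and 349 rows) were whole fragments. Gene types came from GENCODE M21 by symbol. The 9 genes and the lists were chosen with earlier results of these data known. Beyond the 9 genes, the text names all paralogs and regulators of smooth muscle genes, *Pdgfb*, *Kcnj8*, *Notch3* and *Cspg4*, and up to 3 of the largest differences in each direction per list. *Vtn*, *Zic1*, *Synpo2*, *Mylk*, *Myl9*, *Mb*, *Ckm*, *Mylpf*, *Morf4l2* and *Pcsk7* were named after their values were seen. Alternatives were 2 other pseudocounts, 3 filters, 4 scalings, row choices, 2 stricter calls and, added after seeing the data, leaving out genes listed at 0. Python 3.11.15, numpy 2.4.6, pandas 2.3.3 and matplotlib 3.10.9 were used.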

Additional observations from a re-analysis of the deposited data

How the results depend on the processing

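Unnamed rows took 70.7% and 80.7% of summed FPKM, and giving both libraries the same sum over all rows moved the median log2 ratio of all compared genes to -0.62, with 560 called higher and 7465 lower in place of 2185 and 1210. The mural median then became -0.47, with 1 mural gene higher and 3 lower, *Pdgfrb*, *Des* and *Acta2* changed sign to -0.40, -0.48 and -0.46, and *Anpep* at 0.27 was no longer called. Other genes no longer called higher include *Klf4*, *Foxf2* and *Sphk1*, at 0.18, 0.47 and 0.51, while *Ifitm1* at 0.68 was still called. The ratio of mutant to control sums became 0.572 for pericyte genes (from 0.911) and 2.24 for smooth muscle genes (from 3.56). Under the other settings each of the 9 genes kept its sign, and *Rgs5* stayed between -0.68 and -0.63 and *Anpep* between 0.89 and 0.94. With at least 1 FPKM required in both libraries, or genes listed at 0 left out (added after seeing the data), 1 mural gene was higher. A fold change of 2 left 1 higher (*Tagln*) and 0 lower, and 975 and 522 of all genes. With at least 5 FPKM in 1 library, 1290 and 889 genes were called. Without genes at 0 the smooth muscle sum ratio was 1.10, and the mutant smooth muscle sum over the endothelial sum was 0.0673 in place of 0.219. Leaving out merged rows, which drops *Ly6c1*, gave 0.372 in place of 0.328 for the control pericyte sum over the endothelial sum, and 0.425 in place of 0.386 for the mutant. No paired analysis was possible because each genotype had 1 library, and for the same reason no library could be left out. Differences between animals, dissection and genotype cannot be told apart.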
